A study of Mus musculus with 5 samples.

Results

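Keratins are the intermediate filament proteins of epithelial cells, and 8 keratin genes that mark the 2 layers of the mammary epithelium are described here in mouse mammary tumours: Krt8, Krt18, Krt19 and Krt7 of luminal cells and Krt14, Krt5, Krt15 and Krt17 of basal cells. They were chosen by name from the deposited matrices, which hold 41028 gene names after merging spellings, 24299 of them with at least 1 molecule counted in any library. All 8 had counts in every library. The tumours came from PyMT mice, in which polyoma virus middle T antigen drives tumours of the mammary gland. Nothing in the labels gives the promoter of the transgene, the strain, the age, or the number of animals or tumours.

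The 5 samples are single-cell RNA libraries of digested tumours that were enriched for viable cells. A pair of fresh samples was run on the 10x Genomics droplet system with 3′ v2 chemistry (fresh 10x 1 and fresh 10x 2). A further 10x sample was made from a digest kept for 24 h by its title, or overnight at 4 °C by the protocol, until viability had dropped by at least 20% (stored 10x). The remaining samples were run on BD Rhapsody, which captures cells in microwells. BD 1 is fresh by its title. BD 2 is fresh by its title while its matrix is named for 24 h, so no storage state is assumed for it and it stands alone. Nothing in the labels says that the fresh 10x samples came from separate animals, so the p-values of the fits with 4 groups measure only the spread between those 2 samples, which may be technical.

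Keratin filaments are built from pairs of a type I and a type II protein in equal amounts. Krt8 and Krt18 are the first pair made in simple epithelia and fill the luminal cells of the mammary duct, where Krt7 (type II) and Krt19 (type I) are added. Krt5 and Krt14 form the pair of the basal layer, which in this gland contains contractile myoepithelial cells. Krt15 and Krt17 are type I keratins known from basal cells of stratified epithelia, Krt17 also from stressed or wounded epithelium. Pathologists use the same genes to separate luminal from basal features in mammary tumours.

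Values for all libraries are given in 1 order throughout: fresh 10x 1, fresh 10x 2, stored 10x, BD 1, BD 2. The libraries held between 29166129 and 59957945 counted molecules (unique molecular identifiers, UMIs) in at most 4186 cells. Barcodes shared within a platform numbered 1 to 5 for the 10x pairs of libraries and 24 for the BD pair. Cells were classed with 5 marker genes per class and no keratin, so that the class does not depend on the genes described. Epithelial-gated cells, called by Epcam, Cdh1, Cldn3, Cldn7 and Spint2, numbered 1372, 1381, 2901, 2791 and 3172, with medians of 10184.5 to 13277 UMIs per cell (BD 2 lowest, BD 1 highest). The median mitochondrial share of these cells was 6.70%, 7.53% and 7.44% in the 10x libraries against 16.1% in BD 1 and 20.2% in BD 2. The 5 markers of leukocytes, of endothelial cells and of mural cells each summed to at most 0.106 UMIs per 10000 in the epithelial-gated cells, and the 5 of fibroblasts to 0.616 to 1.31, against 27.6 to 39.9 for the epithelial markers.

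The genes lie in the 2 keratin clusters of the mouse genome. On GRCm38.p6 the type II genes are on chromosome 15: Krt7 at chr15:101412403-101427806 (plus strand), Krt5 at chr15:101707069-101712905 (minus strand) and Krt8 at chr15:101996711-102004342 (minus strand). Krt18 is the only type I member there, at chr15:102028216-102032026 on the plus strand, so that the start sites of Krt8 and Krt18 face away from each other across 23874 bases. The other type I genes are all on the minus strand of chromosome 11, with Krt15 at chr11:100131759-100135949, Krt19 at chr11:100140810-100145926, Krt14 at chr11:100203162-100207510 and Krt17 at chr11:100256215-100261029. The last 500 bases of the transcripts, which both platforms read, are largely private to each gene. Of the 50-base words in them, 9.53% of those of Krt14 and of Krt17 also occur in each other or in Krt16, 1.11% of those of Krt18 occur in Gm5200, and none of the others is shared, so counts of Krt14 and Krt17 are the least certain.

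The promoter sequence of 4 members is shown to set the divergent pair beside the other type II genes. Each line is the 250 bases before the annotated start from RefSeq (GRCm38.p6), 5′ to 3′ on the gene's own strand, and capitals mark the 6-letter GC box GGGCGG on either strand (CCGCCC on the other).
Krt8: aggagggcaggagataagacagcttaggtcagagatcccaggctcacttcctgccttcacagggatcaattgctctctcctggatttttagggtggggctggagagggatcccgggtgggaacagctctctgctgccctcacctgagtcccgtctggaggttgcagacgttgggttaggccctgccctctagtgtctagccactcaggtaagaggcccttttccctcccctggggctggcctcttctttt
Krt18: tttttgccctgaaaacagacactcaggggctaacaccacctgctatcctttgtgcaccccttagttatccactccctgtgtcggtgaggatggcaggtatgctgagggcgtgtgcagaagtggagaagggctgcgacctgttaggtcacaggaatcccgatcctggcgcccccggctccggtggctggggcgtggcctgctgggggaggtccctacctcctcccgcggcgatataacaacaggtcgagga
Krt7: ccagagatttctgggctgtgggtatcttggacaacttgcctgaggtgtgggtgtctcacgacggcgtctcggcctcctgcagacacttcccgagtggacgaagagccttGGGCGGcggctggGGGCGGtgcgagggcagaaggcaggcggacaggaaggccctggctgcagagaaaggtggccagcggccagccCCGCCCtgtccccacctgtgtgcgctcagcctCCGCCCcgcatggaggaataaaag
Krt5: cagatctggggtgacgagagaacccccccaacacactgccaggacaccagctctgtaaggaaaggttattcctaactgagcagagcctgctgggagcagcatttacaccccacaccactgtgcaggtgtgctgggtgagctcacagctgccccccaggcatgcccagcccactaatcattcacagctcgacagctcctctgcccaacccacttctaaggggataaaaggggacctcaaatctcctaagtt
These windows are chr15:102004343-102004592 for Krt8, chr15:102027966-102028215 for Krt18, chr15:101412153-101412402 for Krt7 and chr15:101712906-101713155 for Krt5. The window of Krt7 holds 4 GC boxes and those of Krt8, Krt18 and Krt5 hold none. In 32851 promoter windows of the same length 32.7% had at least 1. A TATA box (TATAAA, in 12.4% of the windows), an AP-1 motif (TGANTCA, in 6.75%) and a Grainyhead-like motif (AACCNGTT, in 1.79%) were searched on both strands and had no match in the 4 windows. These are letters in a window and say nothing about binding.

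Krt8 and Krt18 made up most of the keratin message. All levels below are UMIs of the gene per 10000 UMIs of all genes, summed over the epithelial-gated cells of a library, and since a UMI counts 1 transcript end they are not divided by length. The level of Krt18 was 18.4 and 19.2 in the fresh 10x libraries, 15.7 after storage, 7.42 in BD 1 and 5.96 in BD 2. The level of its partner Krt8 was 14.6, 15.6, 14.4, 9.05 and 5.99. Both genes were higher in each 10x library than in either BD library, and the pair together held 83.4%, 86.1%, 83.8%, 80.3% and 78.9% of the UMIs of the 8 genes. The level of Krt19, the smallest keratin and one that lacks most of the tail domain, was 3.15, 3.49, 3.26, 2.97 and 2.26. The BD libraries were again lowest, but BD 1 lay closer to the lower fresh library than for Krt8 or Krt18. Krt7, a type II keratin of simple and ductal epithelia, was lower than Krt19 in all 5 libraries, at 0.908, 0.715, 0.945, 0.451 and 0.357.

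The basal genes were rarer. Krt14 had a level of 1.70 and 0.984 in the fresh 10x libraries, 1.06 after storage, 0.368 in BD 1 and 0.283 in BD 2. Krt5, its type II partner, had 0.334, 0.226, 0.221, 0.114 and 0.167. Both were higher in each 10x library than in either BD library, but the fresh pair itself was spread, with Krt14 at 1.34 ± 0.506 and Krt5 at 0.280 ± 0.0766 (mean ± SD, n = 2). Krt17 had 0.429, 0.151, 0.286, 0.105 and 0.102, so that the fresh libraries differed more from each other than fresh 10x 2 did from BD 1. Krt15 was near the floor at 0.0771, 0.0368, 0.0460, 0.0388 and 0.0211, and the groups overlapped. In all 5 libraries Krt8 and Krt18 came first, Krt19 next, then Krt7 and Krt14, then Krt5 and Krt17, and Krt15 last. Neighbours changed places: Krt18 led Krt8 on 10x and trailed it in BD 1, with the pair level in BD 2, and Krt14 led Krt7 on 10x and trailed it on BD. Basal genes together were 6.40%, 3.46%, 4.5%, 3.05% and 3.79% of the UMIs of the 8.

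**Figure D1:**
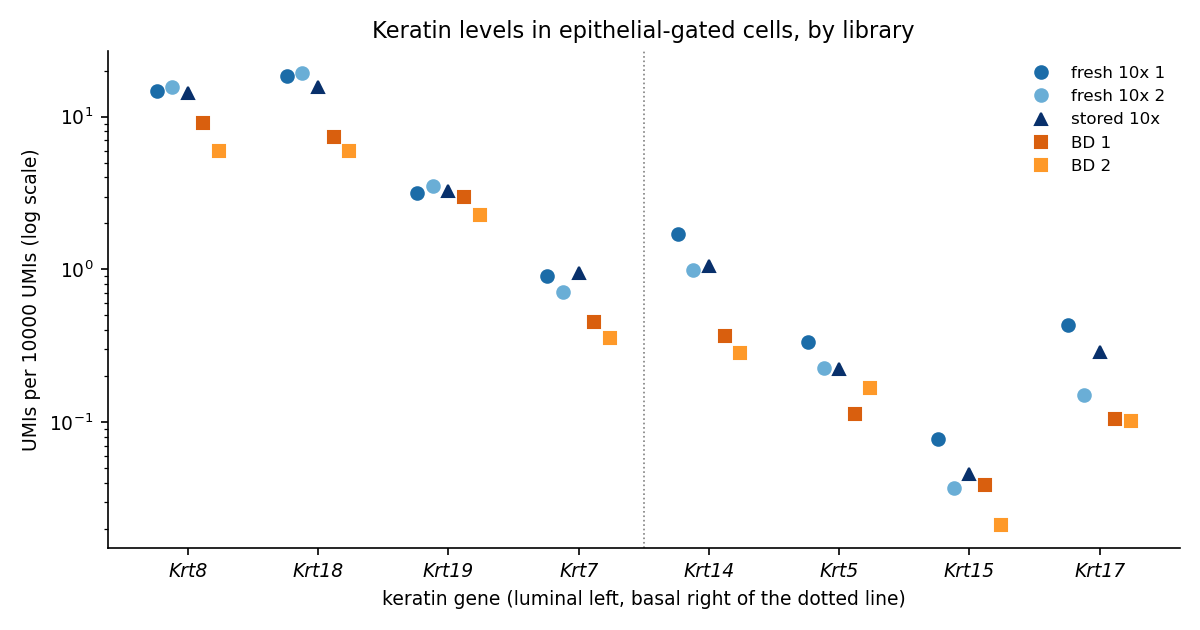
Level of each keratin gene in the epithelial-gated cells of the 5 libraries, in UMIs per 10000 UMIs on a log axis, 1 point per library with no error bar because a library gives 1 value. Every gene but Krt15 is higher in each 10x library than in either BD library, by little for Krt19, and Krt15 overlaps.

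The first comparison asks how the platforms differ on fresh tissue. In epithelial-gated cells 5 of the 8 keratins were lower in BD 1 than in fresh 10x and none was higher. Among all 15560 genes tested 40.9% passed, 20.7% higher and 20.2% lower, so a difference between these platforms was common and the keratin count has to be read against that. Krt14 fell by 2.02 on the log2 scale (SE 0.322, adjusted p = 0.0030, edgeR quasi-likelihood test), Krt18 by 1.49 (SE 0.151, adjusted p = 0.00053), and Krt5 by 1.45 (SE 0.250, adjusted p = 0.0042). Krt7 had a log2 fold change of -1.0 (SE 0.170, adjusted p = 0.0039, edgeR) and Krt8 one of -0.89 (SE 0.145, adjusted p = 0.0033, edgeR). Krt17 (-1.62, SE 0.555, adjusted p = 0.056), Krt15 (-0.70, SE 0.440, adjusted p = 0.24) and Krt19 (-0.31, SE 0.122, adjusted p = 0.082) did not pass the edgeR test. The median was -0.95 for the 4 luminal genes and -1.53 for the 4 basal genes, against 0.02 over all genes. Among the luminal genes the fold change was largest for Krt18 and smallest for Krt19.

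Both platforms were also compared with every library, 3 on 10x against 2 on BD, with storage ignored, so that the spread comes from all 5 libraries. In that fit 7 of the 8 keratins were lower on BD in epithelial-gated cells, with Krt15 the exception (adjusted p = 0.063, edgeR), where 49.9% of genes passed and 25% were lower. Summed over whole libraries, which adds the stroma and leukocytes, the same 5 genes were lower in BD 1 (38.7% of genes passed, 20.1% higher and 18.6% lower) with log2 fold changes of -2.12 for Krt14, -1.54 for Krt18, -1.19 for Krt5, -1.04 for Krt7 and -0.93 for Krt8. The call of Krt5 in whole libraries was lost without the filter on low counts (adjusted p = 0.077, edgeR). In the fit of 3 libraries against 2, all 8 keratins were lower on BD in whole libraries (adjusted p at most 0.027, edgeR). There 48.1% of all genes passed and 23.6% were lower. Scaling to UMIs outside mitochondrial and ribosomal protein genes, a choice made after seeing the data, gave 19.9, 21.5, 20.1, 12.7 and 8.87 per 10000 for Krt8 and 4.29, 4.82, 4.56, 4.17 and 3.35 for Krt19, so both BD libraries stayed below all 10x libraries.

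With a fresh library left out, the fold change is the difference in scaled log2 level between BD 1 and the other fresh library, without a refit. For Krt17 it was -0.65 without fresh 10x 1 and -2.19 without fresh 10x 2. For Krt15 it was -0.06 and -1.14, so a single fresh library set the size of both. For Krt14 the values were -1.55 and -2.37. For Krt8 and Krt18 they stayed between -0.86 and -1.51. Among the epithelial gate markers, Cldn3 was 8.36 and 7.65 per 10000 in the fresh libraries and 2.06 in BD 1. Epcam (21.1 and 19.0 against 16.0) and Cldn7 (3.41 and 3.13 against 2.79) were also lower in BD 1. Cdh1 was 0.848 and 0.824 against 1.91 and Spint2 6.16 and 6.30 against 6.66, so the markers went both ways. These genes also chose the cells. Gene annotation, chemistry, cell capture and tumour differ together between the platforms here and cannot be told apart. Fewer basal cells and less Krt14 RNA per cell also cannot be told apart in these sums.

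**Figure D2:**
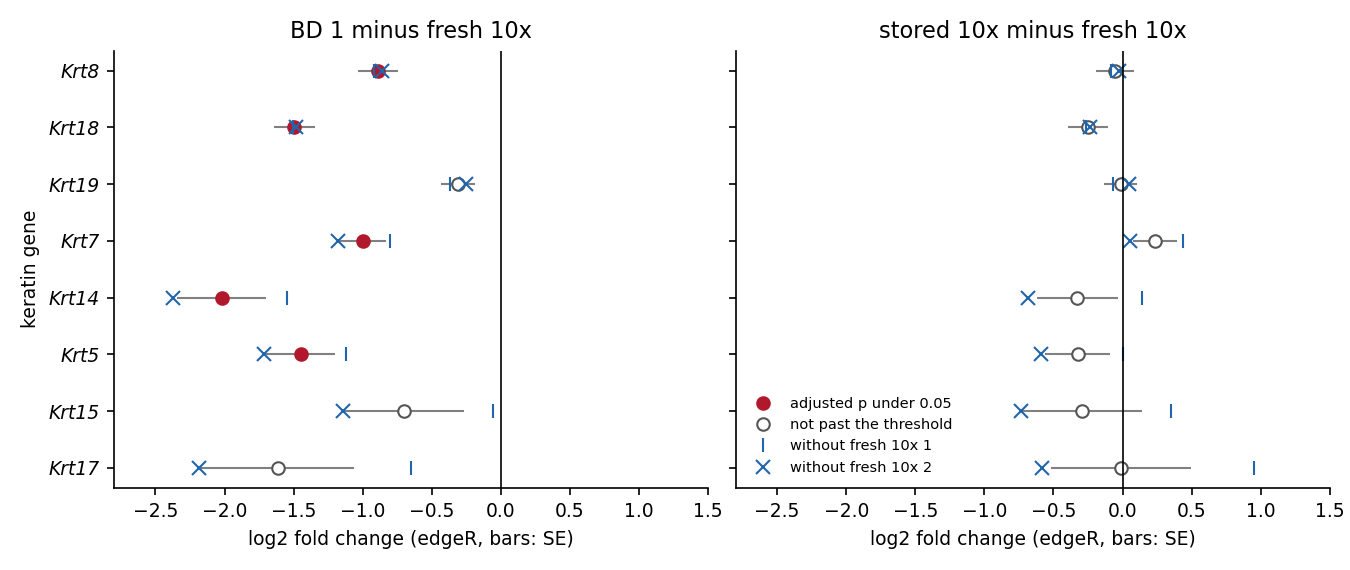
Log2 fold change of each keratin in epithelial-gated cells from edgeR, with bars of 1 SE, for BD 1 (left) and stored 10x (right) against fresh 10x. Filled circles pass an adjusted p of 0.05. The blue marks give the log2 difference with each fresh library left out, without a refit, which moves Krt14, Krt15 and Krt17 most.

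Storage of the digest was the second comparison. None of the 8 keratins passed the edgeR test in stored 10x against fresh 10x, in epithelial-gated cells (adjusted p from 0.45 to 1) or in whole libraries (0.34 to 0.99). The share of all genes that passed was 0.681% in epithelial-gated cells (0.546% higher, 0.135% lower) and 0.147% in whole libraries (0.112% higher, 0.0354% lower). At an unadjusted p under 0.05 the count of keratins was also 0 in both, and DESeq2 called 0. In epithelial-gated cells the log2 fold changes were -0.25 for Krt18 (SE 0.142), -0.06 for Krt8 (SE 0.139) and -0.01 for Krt19 (SE 0.120), and 0.23 for Krt7 (SE 0.160). For the basal genes they were -0.33 for Krt14 (SE 0.293), -0.32 for Krt5 (SE 0.234), -0.29 for Krt15 (SE 0.432) and -0.01 for Krt17 (SE 0.507). Each basal value depended on which fresh library was kept, taken without a refit as for BD 1. Without fresh 10x 1 the values were 0.14 for Krt14, 0.35 for Krt15 and 0.95 for Krt17, and without fresh 10x 2 they were -0.68, -0.74 and -0.59. Krt5 went from 0.0050 to -0.59 and Krt19 from -0.07 to 0.05. With a single stored library the spread between stored samples was not measured.

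Within a pair, a ratio of UMIs needs no scaling to depth. The Krt8 to Krt18 ratio was 0.794 and 0.810 in the fresh 10x libraries (95% counting intervals 0.783 to 0.805 and 0.800 to 0.821). It was 0.918 after storage, 1.22 in BD 1 (1.20 to 1.24) and 1.0 in BD 2. BD 1 was 1.52-fold above the fresh mean of 0.802 ± 0.0114 (SD, n = 2), a log2 difference of 0.60 beside an SD of 0.0204 for the fresh pair. Stored 10x lay 0.19 and BD 2 0.32 above on the same scale, so all 3 other libraries were further from the fresh pair than its members were from each other. The ratios were not tested: an exact permutation test of 2 libraries against 1 cannot pass 0.05. These intervals cover counting error only. The BD 1 matrix contains deposited subsets of its cells, and the ratio was 1.23 and 1.21 in the 2 subsets and 1.24 in the cells of neither.

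The Krt7 to Krt19 ratio was 0.288, 0.205, 0.290, 0.152 and 0.158, and both BD libraries were below all 10x libraries. The fresh libraries were spread over much of that distance, with a log2 SD of 0.349 against a BD 1 difference of -0.68. The Krt5 to Krt14 ratio was 0.196, 0.229, 0.209, 0.309 and 0.589, with the BD libraries on top. In BD 2 a single cell held 186 of the 695 Krt5 UMIs, and without the richest cell of each library, a choice made after seeing the data, the ratios were 0.189, 0.246, 0.195, 0.281 and 0.445. The log2 difference of BD 1 was 0.54 in epithelial-gated cells and 0.92 over every deposited cell, so its size depends on which basal cells enter. Over all 8 genes the sum of type I UMIs divided by that of type II was 1.5, 1.45, 1.31, 1.13 and 1.33, above 1 in every library.

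**Figure D3:**
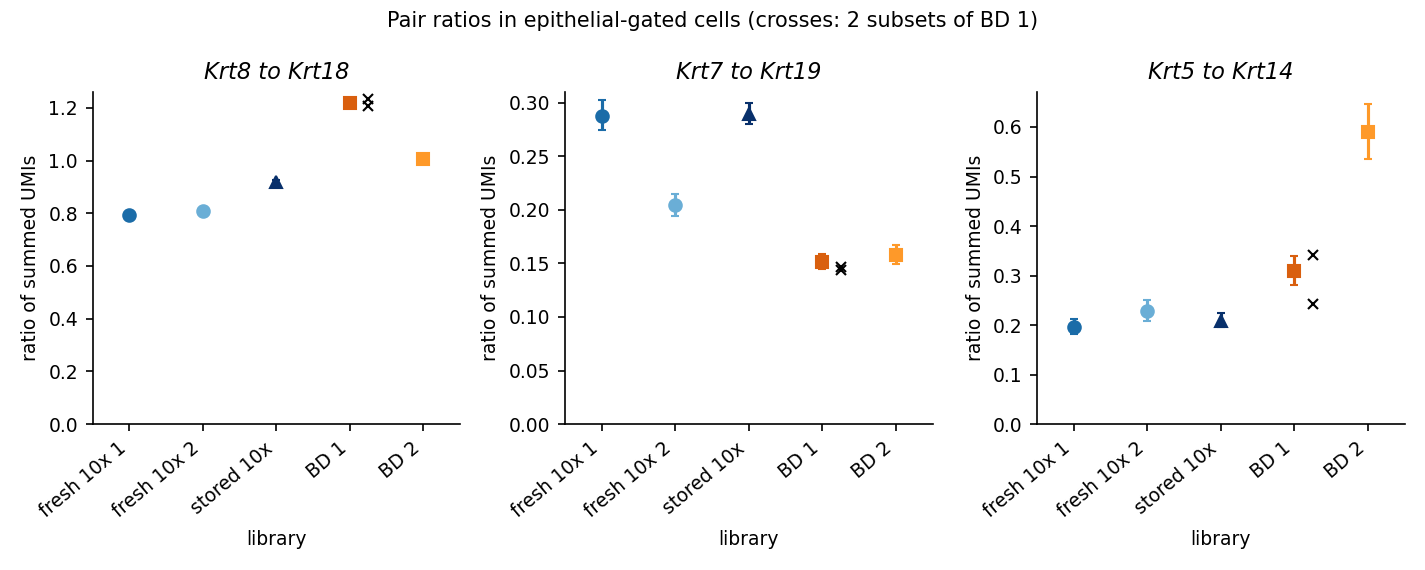
Ratio of summed UMIs in epithelial-gated cells for 3 type II to type I pairs, 1 point per library with its 95% counting interval, and crosses for the 2 deposited subsets of BD 1. Krt8 to Krt18 runs from 0.794 in fresh 10x 1 to 1.22 in BD 1, and Krt7 to Krt19 is lower in both BD libraries than in all 10x libraries.

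The balance of Krt8 and Krt18 also varied from cell to cell. In cells with at least 20 UMIs of the pair, the median share of Krt8 was 42.9%, 42.7%, 46.8%, 55% and 50%. Such cells were 74.4% and 76.5% of epithelial-gated cells in the fresh libraries, 62.0% after storage, 45.2% in BD 1 and 26.3% in BD 2. Krt8 was the more abundant partner in 25.7%, 24.8%, 37.5%, 61.1% and 48.7% of them. The variance of the share between cells was 3.54, 3.66, 3.20, 3.08 and 2.45 times that of binomial sampling at the cells' own depths, so cells of every library differed in the ratio by more than counting error. The middle 80% of cells ran from 28.6% to 57.7% Krt8 in fresh 10x 1 and from 37.7% to 71.4% in BD 1.

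Krt19 and Krt14 were less evenly spread over cells than Krt8 and Krt18. The 5% of epithelial-gated cells richest in a gene held 22.3% to 29.1% of the UMIs of Krt18 and 24.3% to 30.5% of those of Krt8, not far above the 16.3% to 21.6% that the 5% deepest cells held of all UMIs. For Krt7 the share was 37.4% to 45.4% and for Krt19 49.9% to 52.1%. For Krt14 it was 82.9% to 90.3%. Krt5 and Krt15 had a UMI in fewer than 5% of cells in every library, so this share says nothing about their spread. A single cell held 64.3% of the Krt15 UMIs of BD 1 (119 of 185), and without it the level there dropped from 0.0388 to 0.0139. Krt15 values of single libraries therefore describe a few cells.

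Across cells the partners Krt8 and Krt18 went together, as did the basal genes Krt14, Krt5 and Krt17. The Pearson correlation of log2(UMIs per 10000 + 1) between Krt8 and Krt18 was 0.593 over 1372 cells and 0.613 over 1381 cells in the fresh 10x libraries, 0.565 over 2901 after storage, 0.567 over 2791 in BD 1 and 0.495 over 3172 in BD 2. For Krt14 and Krt5 it was 0.731, 0.631, 0.562, 0.506 and 0.489. Both partner pairs therefore ranked high in every library, on both platforms. Krt17 went with Krt5 (0.425 to 0.677) and with Krt14 (0.455 to 0.664), and Krt15 less closely with Krt5 (0.113 to 0.475). Krt8 also went with Krt19 (0.319 to 0.390). The other luminal pairs were looser, with Krt18 and Krt19 at 0.127 to 0.231, Krt18 and Krt7 at 0.134 to 0.213, and Krt19 and Krt7 at 0.181 to 0.256. Cells of a library share its depth and background RNA, and these values are descriptions without a test.

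Between luminal and basal genes Krt18 and Krt8 went the same way against Krt5 and differed in part against Krt14. With Krt5, Krt18 was negatively correlated in all 5 libraries (-0.396 to -0.141), and so was Krt8 (-0.236 to -0.063). With Krt14, Krt18 was negative in all 5 (-0.335 to -0.029), whereas Krt8 ran from -0.157 to 0.031 and was positive in 2 libraries. Krt19 and Krt7 were weakly positive with Krt14 in all 5 (0.127 to 0.235 and 0.154 to 0.189), about as close to it as to Krt18. Thinned to 2000 UMIs per cell, the median over libraries dropped from 0.567 to 0.295 for Krt8 with Krt18 and from 0.562 to 0.532 for Krt14 with Krt5. By Spearman correlation, which uses ranks, the medians of these pairs were 0.603 and 0.286. Those of Krt17 with Krt14 and with Krt5 were 0.298 and 0.368. On ranks Krt18 with Krt14 ran from -0.104 to 0.018 and was positive in 2 libraries, and Krt8 with Krt14 was positive in 4. The level of Krt8 had a correlation of 0.122 to 0.196 with log2 UMIs of the cell and of -0.260 to -0.120 with its mitochondrial share, and for Krt18 these were 0.094 to 0.155 and -0.246 to -0.138. The part of depth and mitochondrial share in the correlation of Krt8 with Krt18 beyond this was not tested.

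**Figure D4:**
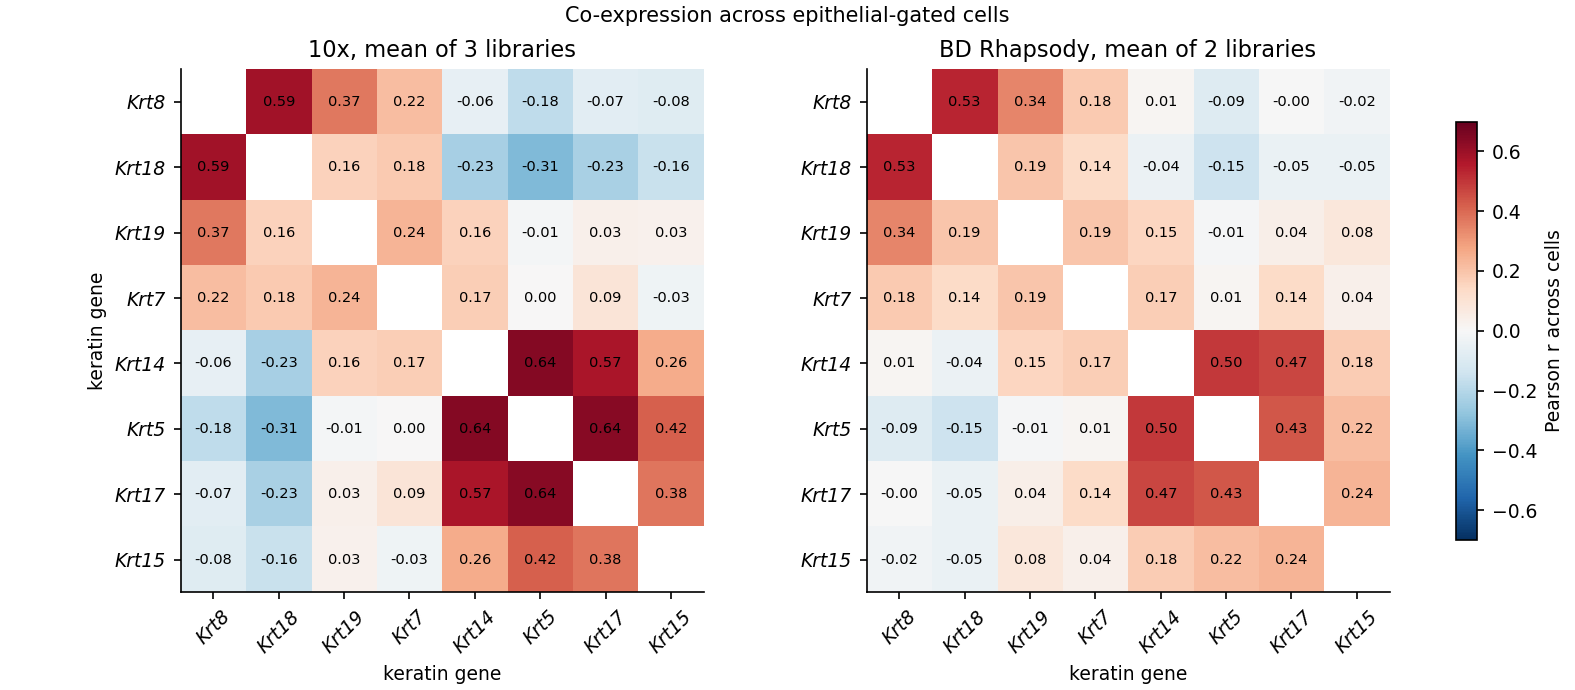
Pearson correlation of log2(UMIs per 10000 + 1) across epithelial-gated cells for each pair of the 8 keratins, as the mean over the 3 libraries of 10x (left) and the 2 of BD Rhapsody (right). Krt8 with Krt18 (0.59 and 0.53) and the group of Krt14, Krt5 and Krt17 stand out on both platforms, and Krt18 with Krt5 is negative on both (-0.31 and -0.15).

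Detection was compared at 2000 UMIs per cell, leaving out 22, 23, 156, 0 and 1 shallower epithelial-gated cells. Krt8 had a UMI in 87.3%, 87.4%, 85.3%, 69.8% and 58.7% of them and Krt18 in 90.2%, 91.9%, 86.1%, 67.2% and 59.2%. In leukocyte-gated cells thinned alike, which should lack both genes, Krt8 was seen in 8.41%, 12.6%, 17.1%, 11% and 7.25%, so the epithelial shares stand well above background RNA. Krt19 was seen in 23.6%, 27.2%, 28.7%, 24.3% and 21.9% of epithelial-gated cells and Krt7 in 14.5%, 11.5%, 14.9%, 8.20% and 5.74%. Krt14 was seen in 8.89%, 7.66%, 8.01%, 3.62% and 3.03%, against 1.87%, 0.901%, 1.60%, 0.323% and 0.580% of leukocyte-gated cells. Unthinned, Krt14 had a UMI in 21.1%, 18.7%, 21.8%, 12.2% and 8.61% of epithelial-gated cells. Krt5 was seen in at most 3.19% and Krt15 in at most 1.04% of thinned cells.

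Most cells with a basal keratin also had a luminal one, and so did most cells without a basal keratin. Cells with at least 1 UMI of both kinds were 9.56%, 8.03%, 8.31%, 3.94% and 3.19% of thinned epithelial-gated cells, and cells with only basal keratins were 0.667%, 0.368%, 0.510%, 0.573% and 0.694%. Cells with only luminal keratins were 88.7%, 89.9%, 89.0%, 86.1% and 80.7%. Cells with neither kind were 1.11% and 1.69% in the fresh libraries, 2.22% after storage, 9.39% in BD 1 and 15.4% in BD 2. A luminal keratin was thus common with or without a basal one. At this depth a cell without a UMI is not a cell without the gene. Cells are called epithelial by genes that luminal cells express strongly, so the gate can pass over basal cells, and no doublet caller was run. The part of doublets in the cells with both kinds was not tested.

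Given Krt14, the partner Krt5 was seen in 31.7%, 20.2%, 18.2%, 15.8% and 17.7% of thinned cells, against 0.228% to 0.407% of cells without Krt14. In the other direction Krt14 was seen in 88.4%, 84.0%, 80.0%, 69.6% and 70.8% of the cells with Krt5, which numbered 43, 25, 50, 23 and 24. Krt5 therefore marked a minority of the cells with Krt14, and most cells with Krt5 also had Krt14. Krt18 was seen in 48.8%, 44.0%, 46.0%, 26.1% and 8.33% of the cells with Krt5, against 91.5%, 92.8%, 86.8%, 67.6% and 59.6% of those without. Krt8 was seen in 85.0%, 83.7%, 84.5%, 66.3% and 67.7% of cells with Krt14 and in 87.6%, 87.7%, 85.3%, 69.9% and 58.4% of those without. The share with Krt18 was thus lower beside Krt5 in each library. Beside Krt14, which is another set of cells, the share with Krt8 was slightly lower in 4 libraries and higher in BD 2. Because the sets differ, these shares do not compare Krt18 with Krt8. Krt19 was seen in 36.7%, 44.2%, 38.6%, 44.6% and 43.8% of cells with Krt14 and in 22.4%, 25.8%, 27.8%, 23.5% and 21.2% of those without.

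Cells with much Krt14 were set apart from those with little. Epithelial-gated cells with at least 5 Krt14 UMIs per 10000 numbered 89, 61, 137, 58 and 48, that is 6.49%, 4.42%, 4.72%, 2.08% and 1.51% of the gate. In them Krt5 was 6.86, 5.45, 4.76, 6.31 and 10.3 per 10000 and Krt17 was 8.19, 2.92, 6.50, 5.02 and 4.6. In BD 2 a single cell held 186 of the 442 Krt5 UMIs. In cells with Krt14 above 0 but under 5, Krt5 was 0.0154, 0.0015, 0.0967, 0.108 and 0.510, against 0.0083, 0.0429, 0.0086, 0.0043 and 0.0108 in cells with no Krt14. Krt17 was 0.105, 0.0750, 0.0553, 0.0999 and 0.280 there, against 0.0237, 0.0379, 0.0224, 0.0188 and 0.0294. These cells with little Krt14 were deep, with a median of 15411 to 28459 UMIs against 9938 to 12874.5 in cells with none and 6935 to 10779 in those with at least 5. Krt17 was thus higher beside a little Krt14 than beside none in all 5 libraries and Krt5 in 4, and both were many times higher again beside much Krt14.

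Luminal keratins were also present where Krt14 was high. Krt8 was 15.2, 25.5, 21.1, 13.8 and 13.3 per 10000 in the cells with at least 5 Krt14 and 13.8, 14.3, 13.3, 8.52 and 5.75 in those with none. Krt18, its partner, was 16.0, 26.4, 18.0, 8.38 and 6.78 against 18.4, 19.1, 14.9, 7.15 and 5.85. Krt8 was thus higher in the cells with high Krt14 in all 5 libraries and Krt18 in 4, with fresh 10x 1 the exception. Krt19 was 5.16, 8.90, 7.44, 6.72 and 8.43 against 2.33, 2.46, 2.63, 2.41 and 1.98, and Krt7 was 2.37, 2.67, 3.62, 2.38 and 1.49 against 0.758, 0.564, 0.774, 0.369 and 0.319. Both were higher in the cells with high Krt14 in all 5 libraries. Trp63, the transcription factor of basal epithelial cells, was 0.851, 0.831, 0.677, 1.35 and 1.05 against 0.049 to 0.071. Acta2, the smooth muscle actin of myoepithelial cells, was 1.83, 2.83, 2.89, 0.717 and 0.0929 against at most 0.0225. The Acta2 value of BD 2 rests on 4 UMIs and lies below the 0.158 of its cells with Krt14 above 0 but under 5. Elf5, a transcription factor of luminal progenitors, was lower in the cells with high Krt14, at 1.93, 3.42, 1.98, 1.76 and 1.93 against 3.83, 3.87, 3.27, 5.43 and 5.14. Kit and Prlr, other luminal cell genes, were also lower there in all 5. Kit was 0.470, 0.602, 0.666, 0.211 and 0.534 against 0.662, 0.836, 0.773, 0.897 and 0.811. Prlr was 0.541, 0.613, 0.578, 0.281 and 0.232 against 1.09, 1.21, 1.10, 1.29 and 1.10. Aldh1a3, another gene of luminal progenitors, went the other way in all 5, at 0.230, 1.53, 0.770, 4.44 and 0.976 against 0.0710, 0.115, 0.132, 0.150 and 0.130. The sums over these cells mix cells with few and many luminal UMIs, so they do not describe a typical cell. Across single cells the Pearson correlation of Krt18 with Krt14 was negative in all 5 libraries (-0.335 to -0.029), and that of Krt8 was positive in 2.

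**Figure D5:**
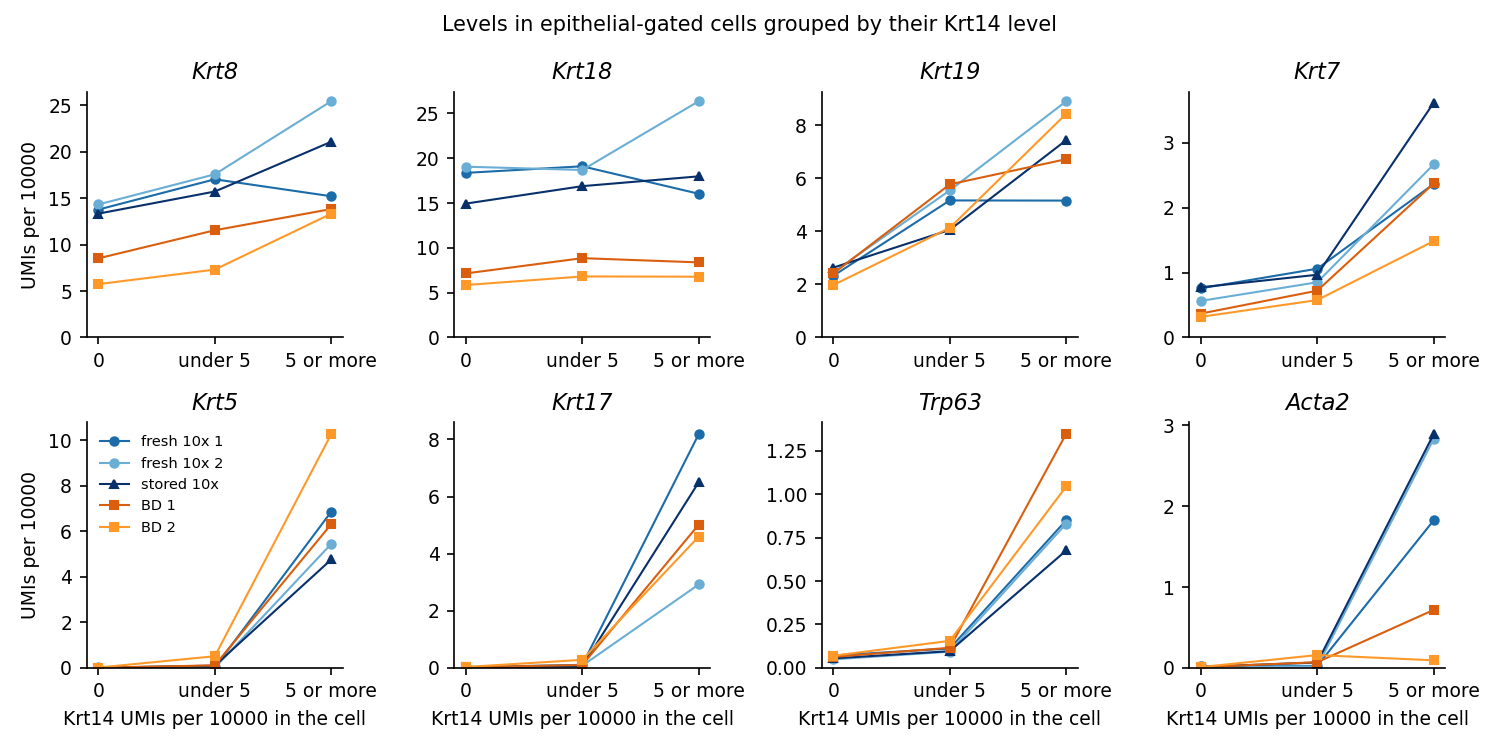
UMIs per 10000 of 6 keratins, Trp63 and Acta2 in epithelial-gated cells grouped by their Krt14 level (none, under 5, or at least 5 per 10000), 1 line per library and no error bar. Krt5, Krt17 and Trp63 are highest in the last group in all 5 libraries, and Krt19 and Krt7 are higher there than in cells with no Krt14.

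Part of the basal message lay outside the epithelial gate. The 4 luminal genes had 96.4% to 99.1% of their UMIs in epithelial-gated cells, whereas Krt14 had 87.3% to 94.0% and Krt5 70.6% to 92.2%. Cells that passed no gate had 5.95, 2.47, 4.55, 0.568 and 0.856 Krt14 UMIs per 10000, above the epithelial-gated cells of the same library in all 5. Ungated cells with at least 5 Krt14 per 10000 and at least 3 Krt14 UMIs numbered 7, 2, 12, 6 and 12 of 157, 163, 409, 273 and 405. They held 6.73%, 6.30%, 9.45%, 4.34% and 10.51% of the Krt14 UMIs of their library, out of 6.94%, 6.79%, 9.88%, 5.30% and 12% in all ungated cells, so a few cells carried the level of the class. Their Krt5 level was 19.8, 5.56, 27.2, 30.8 and 23.9 and their Krt18 level 3.72, 7.56, 2.37, 1.49 and 0.927, against 6.88, 5.49, 4.85, 6.34 and 10.3 for Krt5 and 16.0, 26.5, 18.0, 8.40 and 6.78 for Krt18 in epithelial-gated cells chosen alike. The 10.3 of BD 2 includes the cell with 186 Krt5 UMIs. The ungated cells were thus lower in Krt18 in all 5 libraries and higher in Krt5 in 4, with fresh 10x 2 level. Their median of epithelial marker UMIs was 2 to 4 in those 4 libraries and 41 in fresh 10x 2. In BD 1 a single fibroblast-gated cell held 89 of the 90 Krt5 UMIs of its class.

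Of 9585 genes compared across epithelial-gated cells, those with a mean correlation of at least 0.3 over the 5 libraries, positive in each, numbered 3 for Krt8, 7 for Krt18, 13 for Krt19 and 4 for Krt7. They numbered 17 for Krt14, 12 for Krt5, 10 for Krt17 and 0 for Krt15, and at most the 5 highest are named. Krt8 went with Lmna (mean r 0.38), a nuclear lamin, Anxa1 (0.35) and Atf3 (0.34), a stress-response transcription factor. Krt18 went with Ly6e (0.34), Cldn3 (0.33), Atf3 (0.33), Epcam (0.33) and Plet1 (0.32), of which Cldn3 and Epcam helped to choose the cells. Krt19 went with S100a6 (0.48), Tagln2 (0.40), Crip1 (0.39), Anxa1 (0.36) and Aldh1a3 (0.35), and Krt7 with S100a6 (0.33), Anxa3 (0.32), Basp1 (0.31) and Anxa2 (0.31). The luminal members thus had partly different neighbours, with S100a6, a calcium-binding protein, shared by Krt19 and Krt7.

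Among the basal members Krt14 went with Ctgf (0.44), a matricellular protein, Sparc (0.43), a collagen-binding glycoprotein, Emb (0.40), Timp3 (0.39) and Pltp (0.39). Krt5 went with Sparc (0.53), Ctgf (0.50), Emb (0.46), Apoe (0.45) and Pltp (0.45). Krt17 went with Ctgf (0.45), Apoe (0.37), Sparc (0.37), Lgals7 (0.36) and Tpm2 (0.36). Ctgf and Sparc were thus among the 5 highest of all 3 genes. For Krt15 no gene reached 0.3, and the nearest was Lgals7 at 0.25. Thinned to equal depth the mean correlations of Krt14 with Ctgf and of Krt19 with S100a6 were 0.37 and 0.35, and that of Krt8 with Lmna was 0.19.

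Genes that work with keratins were read from the same fit of BD 1 against fresh 10x in epithelial-gated cells. Of 14 genes of desmosomes, hemidesmosomes and filament linkers, which anchor keratin filaments, 5 were higher and 4 lower, with a median of 0.21, beside 20.7% of all genes higher and 20.2% lower. Pkp1 (plakophilin 1) had the largest value, 1.45 (SE 0.227, adjusted p = 0.0028, edgeR), and Col17a1 (a hemidesmosome collagen) the smallest, -1.83 (SE 0.505, adjusted p = 0.027, edgeR). Of 5 other intermediate filament genes tested, Vim, the mesenchymal filament, was lower (-1.22, SE 0.278, adjusted p = 0.013, edgeR), Lmnb2 higher (0.63, SE 0.170, adjusted p = 0.025, edgeR), and 3 did not pass.

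Of 12 luminal cell genes without keratins 4 were higher and 2 lower, with a median of 0.41, near the 40.9% of all genes that passed. Foxa1, a factor of hormone-sensing cells, had 1.77 (SE 0.572, adjusted p = 0.046, edgeR) from 10 and 39 UMIs in the fresh libraries against 177 in BD 1, and Ly6d had -1.71 (SE 0.111, adjusted p = 0.00014, edgeR). Of 12 myoepithelial and basal cell genes without keratins 2 were higher and 4 lower, with a median of -0.91, beside the same 40.9%. Sox10, a factor of progenitor cells, was at 0.851 and 0.835 per 10000 in the fresh libraries, 1.40 after storage, 4.83 in BD 1 and 3.82 in BD 2, a log2 fold change of 2.37 for BD 1 (SE 0.108, adjusted p = 4.5e-05, edgeR). Myh11, with 6 and 8 UMIs in the fresh libraries and 2 in BD 1, did not pass (-2.8, SE 1.07, adjusted p = 0.078, edgeR). Acta2 was lower in BD 1 (-2.17, SE 0.212, adjusted p = 0.00047, edgeR), beside Krt14 and Krt5, while Trp63 did not pass (-0.35, SE 0.228, adjusted p = 0.26, edgeR). Of 8 epithelial transcription factors 4 were higher and 1 lower (40.9% of all genes passed), from Tfap2a (1.13, adjusted p = 0.00047, edgeR) to Sox4 (-0.58, adjusted p = 0.018, edgeR). In stored 10x a single gene of these 5 lists passed in epithelial-gated cells, Sox10 (0.74, SE 0.110, adjusted p = 0.0495, edgeR).

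Other keratins were scarce. Of 46 further keratin names 38 had UMIs in any library, and 2 reached 0.1 UMIs per 10000 in the epithelial-gated cells of a library. Krt10, a type I keratin of differentiating epidermis, had 0.170, 0.188, 0.155, 0.10 and 0.115. Krt23, a type I keratin, had 0.0897, 0.112, 0.133, 0.176 and 0.163. Of the 8 members, Krt10 and Krt23, only Krt23 was higher in both BD libraries than in all 10x libraries. Krt10 and Krt23 both lay above Krt15 in every library. Below the floor, Krt16, which shares 50-base words with Krt14 and Krt17, had 6, 2, 28, 110 and 156 UMIs in epithelial-gated cells. Its part in the counts of Krt14 and Krt17 was not tested.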

How the data were processed

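Single-cell RNA was measured in 5 samples, grouped by title as fresh 10x (2), stored 10x, BD 1 and BD 2. The authors deposited whole-number UMI counts per gene and cell, without normalization and with cells already selected. Cell Ranger 3.0.1 and mm10 are named in the submitters' processing notes with no role, and the counting of the BD libraries is not given in the sources used here. Deposited pooled and subset matrices were not analysed, except that subset barcodes mark cells of BD 1. The 8 members, the gene lists and the tests were chosen with earlier results of these data known.

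Spellings of a symbol were merged. A cell was gated to a class with at least 3 UMIs of its 5 markers and 70% of its UMIs over all 25 markers. UMI counts were summed per library and tested with edgeR 4.0.16 in R 4.3.3 (TMM scaling, low-count filter, quasi-likelihood test, Benjamini-Hochberg adjustment over all genes, threshold 0.05). The fit held 5 libraries in 4 groups, so the spread came from the fresh pair alone. Counts were simulated for BD 1 against fresh 10x. In epithelial-gated cells (15560 genes) the fit recovered 81% of 100 genes changed by 1 on the log2 scale. In whole libraries (16973 genes) it recovered 69%, and in both 100% of those changed by 2. Among unchanged genes 16 and 8 were called. The simulation gave every gene the same spread and changed only well-counted genes. These rates therefore do not describe genes with more spread, such as Krt17. Correlations, thinning (seed 11) and exact binomial intervals were computed in Python 3.11.15. The genes named are the members, for each member up to 5 genes most correlated with it, keratins of at least 0.1 UMIs per 10000, and the largest and smallest fold change of each list. Acta2, Trp63, Elf5, Kit, Prlr, Aldh1a3 (beside Krt14), Krt16 and the levels of the epithelial gate markers were added after their values were seen. Alternatives were RLE scaling, DESeq2 1.42.0, no low-count filter, other gates, filtered cells, and leaving out a fresh library.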

Additional observations from a re-analysis of the deposited data

How the results depend on the processing

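Over 175 tests of a keratin under another setting, 159 kept direction and side of the threshold. The 32 fold changes of BD 1 without a fresh library were all negative. Krt17 in epithelial-gated cells passed in BD 1 with RLE scaling (adjusted p = 0.0092), with no low-count filter (1.5e-06), with a gate of 2 UMIs and 60% (0.021) and over all libraries by platform (0.011, all edgeR), not with DESeq2 (0.33). Krt15 passed with a gate of 5 UMIs and 90% (0.029, edgeR). Stored 10x fold changes that were near 0 and not called changed sign: Krt17 to 0.045 with filtered cells, to 0.0098 with no filter and to 0.020 with the strict gate, Krt19 to 0.0095 and 0.020 under the last 2, and Krt15 to 0.17 with the strict gate.

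The number of all genes called moved more. In stored 10x whole libraries it was 25, then 67 with RLE scaling, 2 with no filter and 351 with DESeq2. In epithelial-gated cells of stored 10x it was 106 (85 higher), then 441 (281 higher) with RLE scaling, 920 with no filter, 328 with the loose gate and 64 with the strict one. BD 1 gave 6365 genes in epithelial-gated cells and 3836 with DESeq2. The log2 difference of the Krt5 to Krt14 ratio in BD 1 was 0.54, then 0.92 over every cell, 0.72 with the loose gate, 0.70 with filtered cells and 0.38 without the richest cell. The median correlation of Krt8 with Krt18 was 0.567, then 0.603 by Spearman, 0.295 in thinned cells and 0.593 in filtered cells. That of Krt14 with Krt5 was 0.562, then 0.286 by Spearman, 0.532 in thinned cells and 0.571 in filtered cells. The median share of cells with Krt14 was 7.66%, then 4.5% at 1000 UMIs and 3.46% for at least 2 UMIs. The cause was not tested.

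Without a fresh library the log2 difference of the Krt8 to Krt18 ratio was 0.59 to 0.62, of Krt5 to Krt14 0.43 to 0.65 and of Krt7 to Krt19 -0.93 to -0.43. Gene counts have no residual degree of freedom then and were not computed. No paired analysis was possible because BD 1 and stored 10x are single libraries, so each shares fewer than 2 numbers with fresh 10x, and no label says that a number marks a pairing. The titles number the BD libraries 1 and 2, and a block on those numbers was not run since the storage of BD 2 is in doubt. Depth limits Krt5, Krt15 and Krt17, whose values rest on few cells. With 1 library in each other group, storage and platform effects cannot be told apart from those of a tumour.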
